A study of Mus musculus with 6 samples.

Results

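The genes described here encode the proteins that move calcium in the heart muscle cell: the pump, the regulator of the pump, the release channel, the luminal buffers and the junction protein of the sarcoplasmic reticulum, the exchanger and the channel of the surface membrane, and a calcium-dependent kinase. They were chosen by name as 10 rows of a table of 17447 gene symbols, and all 10 were found. RNA was sequenced from 6 hearts of wild-type mice, 3 labelled CKD (chronic kidney disease) and 3 labelled sham. CKD had been produced by surgery that removed the poles of the left kidney and later the whole right kidney, and the sham mice were anaesthetised and opened without loss of kidney tissue. All 6 samples carry the same batch label, and the labels do not state the age of the mice, when the tissue was taken or whether the atria were kept. The column totals ran from 11717426 to 12222637 counts in CKD and from 10474487 to 12669724 counts in sham.

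In each heartbeat, calcium enters through the L-type channel of the surface membrane and opens ryanodine receptors of the facing sarcoplasmic reticulum, which release a larger amount of stored calcium. The cell relaxes when the SERCA pump takes calcium back into the store and the sodium-calcium exchanger carries the rest out. Phospholamban restrains the pump until it is phosphorylated, which is one way in which adrenergic stimulation speeds relaxation. In mouse ventricle the pump is known to handle most of the calcium removed in each beat.

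Before any level was read, the row labels of the CKD columns were checked, and they did not match their values. Rank correlations over the genes of the table, which are not independent replicates, were computed for each pair of columns. Spearman's rho was 0.984 to 0.987 among the CKD columns and 0.982 to 0.985 among the sham columns, but -0.0586 to -0.0528 in the 9 pairs that joined a CKD with a sham column. The 10 calcium handling rows held 6 to 573 counts in the CKD columns and 772 to 247428 counts in the sham columns. They stood at percentiles 26.7 to 72.7 among the CKD rows and 88.3 to 99.99 among the sham rows. Of 10 ventricular cardiomyocyte markers, 6 were at 0 in at least 1 CKD column, and their median percentile was 17.7 in CKD and 99.9 in sham. No gene was therefore compared between CKD and sham hearts, and all levels below are those of the 3 sham hearts, with no test, since a single group was used.

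In sham hearts the 10 genes took 3.49% ± 0.257 of all counts (SD, n = 3), and Atp2a2 and Pln made up 79.3% ± 0.215 of that amount. Levels are given as CPM, the count divided by the total of its column, times 1000000. They ran from 20090 CPM for the pump to 84.2 CPM for a subunit of the L-type channel. Of the 10 genes, 9 averaged at least 100 CPM, as did 9.73% of all rows. With so many counts, counting error alone was small, at 0.211% to 3.26% of the level per heart, and the spread between hearts was larger for each of the 10 genes.

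Atp2a2, which encodes the SERCA pump of heart and slow muscle, stood at 18799, 21942 and 19529 CPM in sham 1, 2 and 3. Its mean of 20090 ± 1645 CPM (SD, n = 3) was the second highest of all rows in the table. The count covers the gene as a whole, so the muscle and the general splice forms of the pump are not separated.

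Pln, which encodes phospholamban, stood at 7440, 7954 and 7291 CPM, with a mean of 7562 ± 348 CPM (SD, n = 3). The hearts lay close together, with sham 2 the highest and sham 3 the lowest. The coding sequence of phospholamban is shown because it is very short for so abundant a message, and because the sites that switch its action lie side by side. It has 159 bases with the stop codon, in a reference transcript of 2334 bases, so most of the reads behind this level can come from outside the coding part. Codons 16 and 17, in capitals, encode the serine phosphorylated by protein kinase A and the threonine phosphorylated by CaM kinase II. The sequence is from the GENCODE M21 transcript of the plus strand of chromosome 10, build GRCm38, and that of sarcolipin, a related pump inhibitor of 31 codons, is from the plus strand of chromosome 9.
Pln: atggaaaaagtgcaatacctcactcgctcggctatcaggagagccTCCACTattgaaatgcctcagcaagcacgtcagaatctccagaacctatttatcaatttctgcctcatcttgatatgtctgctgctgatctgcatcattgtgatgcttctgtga
Sln: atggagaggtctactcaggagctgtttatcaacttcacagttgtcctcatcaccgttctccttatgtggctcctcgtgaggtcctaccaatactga

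Ryr2, the release channel of the cardiac sarcoplasmic reticulum, stood at 1913, 2442 and 2095 CPM (mean 2150 ± 269, SD, n = 3). Sham 2 was the highest heart and sham 1 the lowest. Hrc, a histidine-rich protein that binds calcium inside the store, stood at 1469, 1814 and 1632 CPM (mean 1638 ± 172). Casq2, the cardiac calsequestrin and main luminal calcium buffer, stood at 1420, 1561 and 1382 CPM (mean 1454 ± 94.4). Both luminal proteins were highest in sham 2, and their lowest hearts differed, sham 1 for Hrc and sham 3 for Casq2. Jph2, the junctophilin that ties the reticulum to the surface membrane at the dyad, stood at 783, 819 and 761 CPM (mean 788 ± 29.3). It varied least of the 10 genes between hearts, with a coefficient of variation of 3.72%.

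At the surface membrane, Slc8a1, the sodium-calcium exchanger of heart, stood at 547, 605 and 468 CPM (mean 540 ± 68.8, SD, n = 3). Sham 3 was its lowest heart. Cacna1c, the pore subunit of the cardiac L-type channel, stood at 348, 384 and 364 CPM (mean 365 ± 17.9). Cacnb2, the beta subunit that carries the channel to the membrane and sets its gating, stood at 73.7, 96.7 and 82.1 CPM (mean 84.2 ± 11.7). It was the lowest of the 10 genes in CPM and varied most, with a coefficient of variation of 13.9%. Camk2d, the main cardiac CaM kinase II, which phosphorylates phospholamban, the ryanodine receptor and the L-type channel, stood at 212, 188 and 193 CPM (mean 197 ± 12.6). It was the only one of the 10 genes that was highest in sham 1 and lowest in sham 2 by column total.

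**Figure D1:**
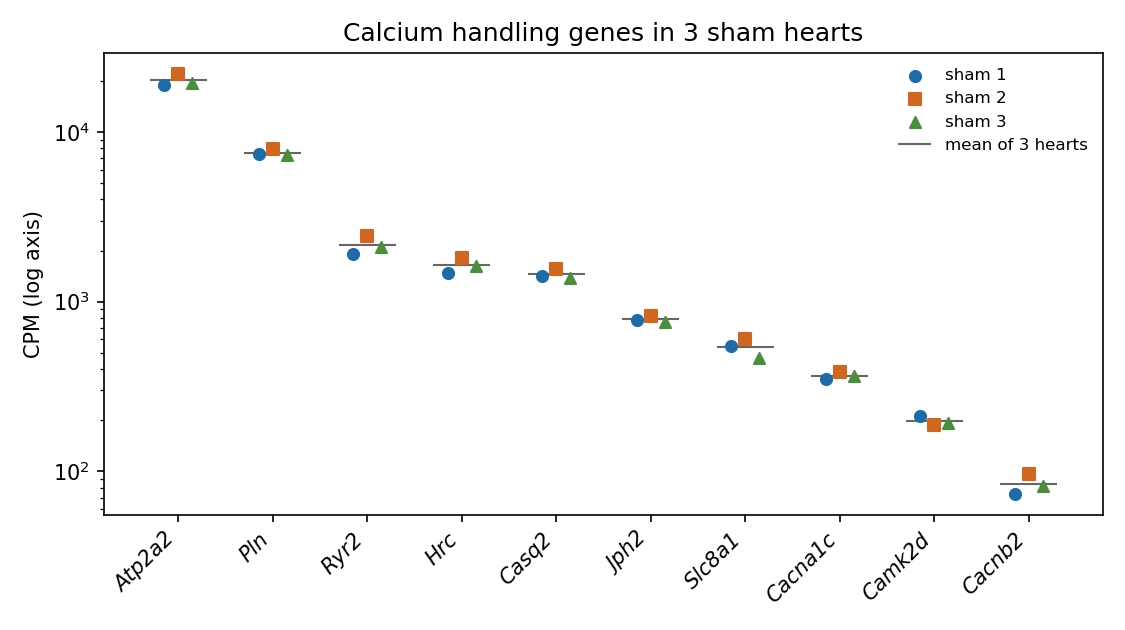
CPM (log axis) of the 10 calcium handling genes in sham 1, 2 and 3, ordered by mean, with the mean of the 3 hearts as a line. The 3 points of each gene lie close together against a spread between genes from 84.2 to 20090 CPM.

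Levels of different genes can be set against each other only per length, because a longer transcript yields more fragments. Per kb of reference transcript, Atp2a2 stood at 4478 ± 367 and Pln at 3240 ± 149 CPM per kb (SD, n = 3). Hrc followed at 680 ± 71.5 and Casq2 at 569 ± 36.9 CPM per kb. After these luminal proteins came Jph2 at 187 ± 6.96, Slc8a1 at 170 ± 21.6 and Ryr2 at 128 ± 15.98 CPM per kb. The very long Ryr2 transcript, 16814 bases, thus placed the release channel behind Jph2 and Slc8a1 per kb, although its CPM was higher than theirs. Cacna1c stood at 55.5 ± 2.71, Cacnb2 at 39.8 ± 5.51 and Camk2d at 35.7 ± 2.28 CPM per kb. Neighbours whose ranges over the hearts overlapped per kb were Hrc with Casq2, Jph2 with Slc8a1, and Cacnb2 with Camk2d. The order depended on the length used in places. Over all annotated exons of a gene, Ryr2 at 74.7 CPM per kb lay above Slc8a1 at 28.7. Over the coding part, Pln at 48472 CPM per kb lay above Atp2a2 at 6414, and Casq2 at 1168 lay above Hrc at 740.0. Camk2d was last per kb of transcript only. It stood at 131.8 CPM per kb over the coding part, above Cacna1c at 55.5 and Cacnb2 at 46.4. Over all annotated exons it stood at 8.77, above Cacnb2 at 6.36.

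Ratios within a heart do not depend on the column total. The count of Pln was 0.396, 0.363 and 0.373 of that of Atp2a2 in sham 1, 2 and 3, a mean of 0.377 ± 0.0169 (SD, n = 3). Per kb of transcript this was 0.725 ± 0.0326 Pln for each Atp2a2. The regulator was thus below the pump per kb of transcript in these hearts, and also over all annotated exons, where the ratio was 0.831. With coding length, which leaves out most of the Pln transcript, the ratio was 7.57. Against the pump, the exchanger gene was low, and Slc8a1 had 0.0291, 0.0276 and 0.0240 of the count of Atp2a2. The pump exceeded the exchanger 26.5 ± 2.71 fold per kb of transcript, 34.8 fold with coding length and 115.8 fold over all annotated exons. Sham 3 had the lowest exchanger share and sham 1 the highest.

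For the release unit, the count of Casq2 was 0.743, 0.639 and 0.659 of that of Ryr2. The buffer exceeded the release channel 4.48 ± 0.360 fold per kb of transcript (SD, n = 3), 8.14 fold with coding length and 7.16 fold over all annotated exons. The release channel is a tetramer of very large subunits and calsequestrin forms polymers, so an RNA ratio is not a ratio of working units. The count of Jph2 was 0.409, 0.336 and 0.363 of that of Ryr2, which is 1.47 ± 0.148 per kb of transcript, 2.64 with coding length and 2.50 over all annotated exons. The count of Cacna1c was 0.182, 0.157 and 0.174 of that of Ryr2, which is 0.437 ± 0.0323 per kb of transcript and 0.232 over all annotated exons. The trigger channel lay under the release channel with each length. All 3 ratios to Ryr2 were highest in sham 1 and lowest in sham 2. They are not independent, since they share Ryr2, which was itself lowest in sham 1 and highest in sham 2.

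Within the L-type channel, the count of Cacnb2 was 0.211, 0.252 and 0.225 of that of Cacna1c, a mean of 0.230 ± 0.0205 (SD, n = 3) and 0.714 ± 0.0638 per kb of transcript. Over all annotated exons the ratio was 0.368. Cacna2d1, the main alpha2delta subunit of the cardiac channel, had 0.590, 0.635 and 0.636 of the count of Cacna1c. Its ratio was 0.559 ± 0.0237 per kb of transcript, but 1.26 with coding length and 1.06 over all annotated exons. These subunit ratios were lowest in sham 1, and that of Cacnb2 was highest in sham 2. The count of Slc8a1 was 1.57, 1.58 and 1.29 times that of Cacna1c, which sets sham 3 apart from the other hearts, between which it was nearly equal. The count of Camk2d was 0.111, 0.0769 and 0.0920 of that of Ryr2, and this ratio varied most.

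Across the 11 ratios between the described genes, the coefficient of variation over the 3 hearts ran from 3.55% to 18.2%, with a median of 8.04%. The steadiest were Hrc to Atp2a2 at 3.55%, Pln to Atp2a2 at 4.49% and Atp2a2 to Ryr2 at 4.52%. The count of Atp2a2 was 9.83, 8.99 and 9.32 times that of Ryr2. Ryr2 and Hrc varied by 12.5% and 10.5% on their own, Atp2a2 by 8.19% and Pln by 4.61%. These 3 ratios, the lowest of the 11, were thus steadier than both of their genes, though only slightly so against Pln. Each other ratio varied more than the steadier of its genes.

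**Figure D2:**
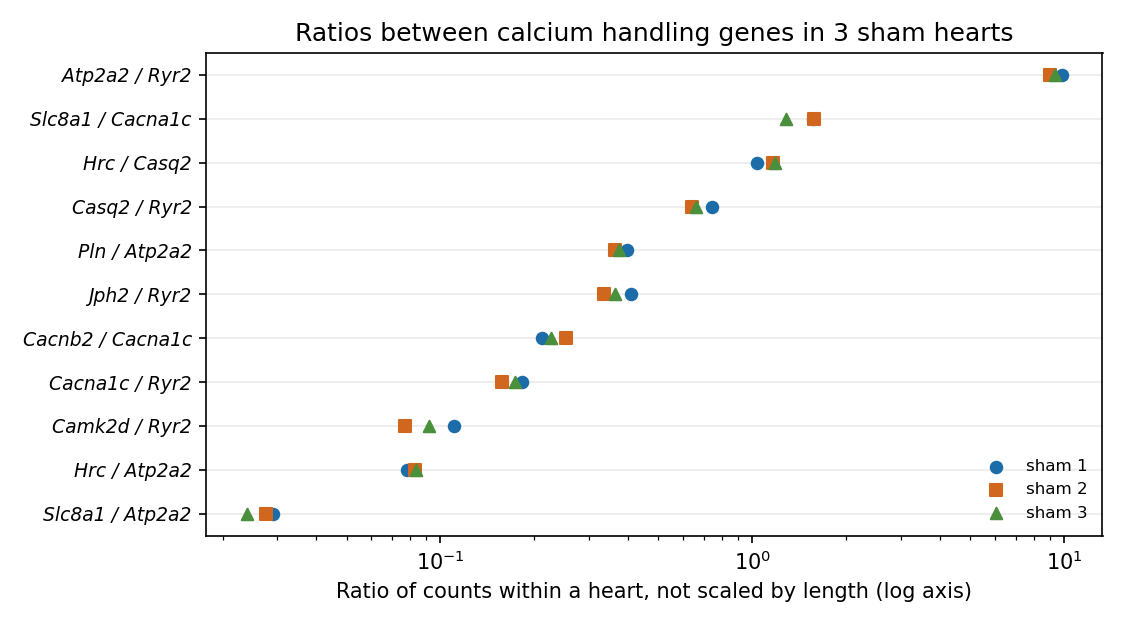
Ratio of counts within each sham heart (log axis, not scaled by length) for the 11 ratios between the described genes. The points of Slc8a1 to Cacna1c show sham 3 at 1.29 below the other hearts, and those of Camk2d to Ryr2 are the most spread, from 0.0769 to 0.111.

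In 7 of 8 families of related genes the described member led by far, and the CaM kinases were the exception. Per kb of transcript, Atp2a2 made up 99.87% ± 0.0183 of the summed level of the 3 SERCA genes (SD, n = 3). Atp2a1, the pump of fast skeletal muscle, gave 16, 11 and 17 counts, and Atp2a3, a pump of non-muscle cells, gave 232, 236 and 339. Ryr2 made up 99.80% ± 0.0893 of the 3 ryanodine receptors. Ryr1, the skeletal muscle receptor, gave 15, 9 and 11 counts, and Ryr3 gave 39, 18 and 35. Slc8a1 made up 99.70% ± 0.171 of the 3 exchangers, of which Slc8a3 gave 7, 1 and 4 counts.

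Casq2 made up 97.8% ± 1.33 of both calsequestrins per kb. Casq1, the skeletal form, stood at 23.4, 9.45 and 36.1 CPM, so that its level in sham 3 was several times that in sham 2. Of 8 skeletal muscle markers, Myh1, Myh2 and Myh4 were at 0 counts in all 3 hearts, and the summed list took 0.000334% to 0.000505% of the counts. With 0 counts a level of up to 0.286 CPM remains possible in sham 2, from counting error alone. Jph2 made up 96.5% ± 0.211 of the 4 junctophilins per kb, and Jph1 followed at 32.6 ± 3.44 CPM. Jph3 and Jph4, known from neurons, gave at most 1 and 5 counts in a heart.

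Among the 7 high-voltage channel pore genes, Cacna1c made up 93.1% ± 2.06 per kb of transcript and 82.5% over all annotated exons. Cacna1s, the pore of the skeletal muscle channel, came next with 263, 217 and 167 counts, or 5.28% ± 1.64 per kb. Cacna1d, which serves in pacemaker and atrial cells, gave 78, 13 and 44 counts, and Cacna1f, a channel of the retina, gave 0 in each heart. Cacnb2 made up 89.5% ± 1.97 of the 4 beta subunits per kb of transcript and 66.2% over all annotated exons, with Cacnb1 at 8.32 ± 1.56 CPM and Cacnb3 at 4.96 ± 0.956 CPM. The CaM kinase family was shared, with Camk2d at 48.3% ± 0.763, Camk2g at 25.2% ± 0.526, Camk2a at 19.8% ± 0.923 and Camk2b at 6.62% ± 0.464 per kb. That order turned with the length used. Over all annotated exons Camk2g stood at 34.2%, Camk2a at 31.0% and Camk2d at 27.9%.

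**Figure D3:**
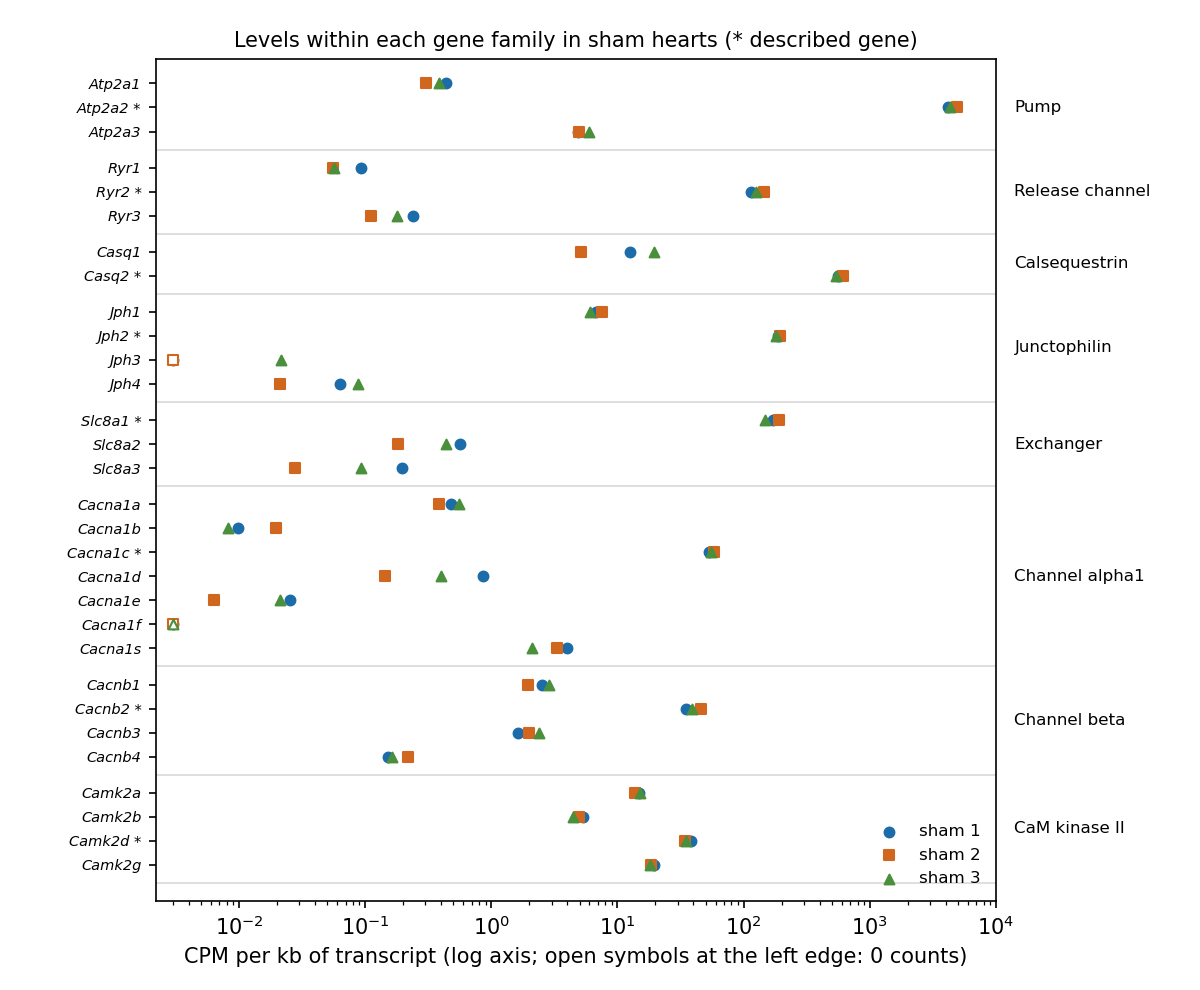
CPM per kb of reference transcript (log axis) for each gene of 8 families in sham 1, 2 and 3, with the described genes starred and 0 counts as open symbols at the left edge. In 7 families the starred gene lies far to the right of its relatives, and in the CaM kinase II family Camk2a and Camk2g lie close to Camk2d.

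In CPM, each of the 22 relatives averaged less than the described gene of its family. None averaged more than the 72.7 CPM of Camk2a. At least 1 CPM was reached on average by 16, near the share of 71.6% over all rows. Of these 16, 9 were lowest in sham 2, where 51.5% of all genes at 1 to 100 CPM were lowest, so the share is near the background.

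Other micropeptides also act on the pump. Sln, which encodes sarcolipin, an inhibitor found mainly in atrium in the mouse heart, gave 1152, 2 and 205 counts, or 109.9, 0.191 and 16.2 CPM, in sham 1, 2 and 3. The hearts thus differed widely in sarcolipin and little in phospholamban. Per kb of transcript, Sln stood at 83.4 CPM in sham 1, 0.145 in sham 2 and 12.3 in sham 3, against 3188, 3408 and 3124 for Pln. All 6 atrial markers, of which Sln is one, were highest in sham 1 and lowest in sham 2, and summed to 0.244%, 0.00773% and 0.0462% of the counts. Of the genes at 10 CPM or more, 36.9% were highest in sham 1 and 45.6% were lowest in sham 2 by column total. Myl7 stood at 497, 1.43 and 81.5 CPM, and Bmp10 at 24.9, 0.0955 and 0.158 CPM. The part of atrial tissue in these values was not tested. Strit1, whose micropeptide DWORF relieves the pump of phospholamban, gave 96, 114 and 209 counts, a mean of 12.2 ± 3.84 CPM (SD, n = 3). Mrln, which encodes the skeletal muscle inhibitor myoregulin, gave 1, 1 and 4 counts.

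**Figure D4:**
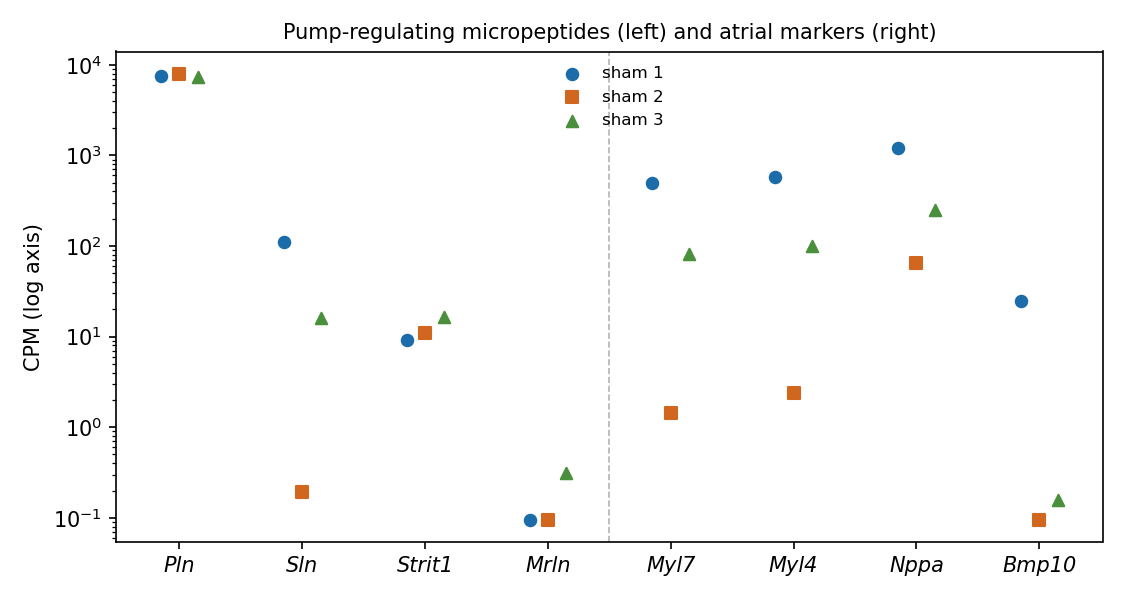
CPM (log axis) of 4 genes for pump-regulating micropeptides, left of the dashed line, and of 4 atrial markers, right of it, in sham 1, 2 and 3. Pln is level over the hearts, whereas Sln and the atrial markers are highest in sham 1 and lowest in sham 2.

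By column total, 9 of the 10 genes had the same highest heart, sham 2, where 23.5% of the 8864 genes at 10 CPM or more were highest, as were 37.1% of the 1698 genes at 100 CPM or more. Camk2d was the exception. The lowest heart was not shared, being sham 1 for 5 genes, sham 3 for 4 and sham 2 for Camk2d. With TMM scaling, which matches the bulk of the genes between hearts, 9 of 10 were again highest in sham 2, against 41.2% of the genes at 10 CPM or more and 60.5% of those at 100 CPM or more. On that scale Camk2d was no longer lowest in sham 2. By column total, the median of the 10 levels over their own means was 0.965 for sham 1, 1.08 for sham 2 and 0.973 for sham 3. Of 10 ventricular cardiomyocyte markers, none of which is among the described genes, 9 were also highest in sham 2, and together they took 10.9%, 11.9% and 10.7% of the counts. In the same heart, markers of other cells were low. Fibroblast markers summed to 0.190%, 0.0958% and 0.223% of the counts in sham 1, 2 and 3, with sham 2 the lowest for each of the 7. Endothelial markers summed to 0.128%, 0.108% and 0.140%, and macrophage markers to 0.0474%, 0.0367% and 0.0589%, and sham 2 was the lowest for each of the 6 genes of either list. Smooth muscle and pericyte markers summed to 0.106%, 0.1004% and 0.128%, with 5 of 6 lowest in sham 2. By column total, sham 2 was the lowest heart for 45.6% of the genes at 10 CPM or more. It was the lowest for 31.3% of those at 100 CPM or more. With TMM scaling these shares were 28.8% and 15.1%, and the marker lists were read by column total only. In bulk tissue, fewer cells of a type and less RNA per cell cannot be told apart, and the part of cell makeup in these differences between hearts was not tested.

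Set against the summed ventricular markers instead of the column total, sham 2 was the highest heart for 5 of the 10 genes, sham 1 for 3 and sham 3 for 2. Of the genes at 10 CPM or more, 7.15% were highest in sham 2 on this scale. On that scale the median coefficient of variation of the 10 genes was 5.26%, against 7.34% by column total. It was lower for 9 of the 10 genes, compared with 22.9% of the genes at 10 CPM or more and 33.9% of those at 100 CPM or more. Camk2d was again the exception, at 10.4% on the marker scale and 6.39% by column total. Casq2 stood at 1.30%, 1.31% and 1.29% of the summed markers in sham 1, 2 and 3, and Pln at 6.82%, 6.67% and 6.81%. These were the steadiest of the 10 on the marker scale, with coefficients of variation of 0.698% and 1.22%, whereas Cacnb2 varied by 9.25%. Slc8a1 stood at 0.502%, 0.508% and 0.438%, so it was low in sham 3 on this scale also. Ryr2 stood at 1.75%, 2.05% and 1.96% and Hrc at 1.35%, 1.52% and 1.52%, both lowest in sham 1.

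**Figure D5:**
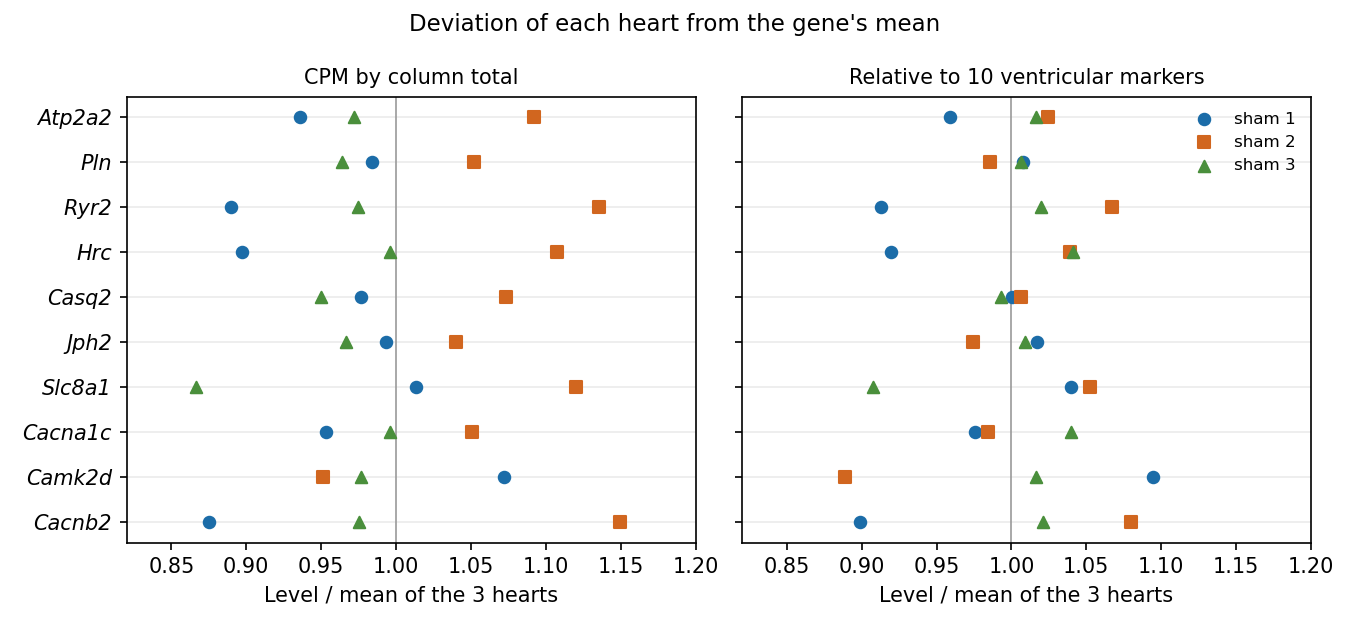
Level of each described gene in sham 1, 2 and 3 divided by its mean over the hearts, by column total (left) and relative to the summed 10 ventricular markers (right). On the left sham 2 is highest for 9 of 10 genes, and on the right for 5, with Casq2 nearly level and Slc8a1 low in sham 3 on both.

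How the variation between hearts compared with other genes depended on the scaling. By column total the median coefficient of variation was 7.34% for the 10 genes, 9.32% for the 8864 genes at 10 CPM or more and 7.18% for the 1698 genes at 100 CPM or more. Of the 10, 6 lay under the median of the genes at 10 CPM or more and 5 under that of the genes at 100 CPM or more. With TMM scaling the median was 11.5% for the 10 genes, 9.57% for the genes at 10 CPM or more and 8.77% for those at 100 CPM or more.

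The proteins that work with these genes were also widely expressed. Of 64 listed partners, 62 averaged at least 1 CPM in sham hearts, as did 71.6% of all rows, and 30 averaged at least 100 CPM, as did 9.73% of all rows. Of the 14 partners of the release complex, 13 averaged at least 1 CPM. Srl, the luminal calcium-binding protein sarcalumenin, stood at 1525 ± 125 CPM (SD, n = 3), and S100a1, a calcium sensor of the pump and the release channel, at 722 ± 30.3 CPM. Tmem38a, the potassium channel TRIC-A that balances charge during release, stood at 594 ± 51.1 CPM. Trdn, which anchors calsequestrin to the release channel, stood at 324 ± 25.1 CPM and Asph, whose locus also encodes the anchor junctin, at 276 ± 26.4 CPM. Trdn had 0.152 ± 0.0134 of the count of Ryr2. That ratio was 0.565 ± 0.0498 per kb of transcript, 1.09 with coding length and 0.467 over all annotated exons.

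The immunophilins that bind the release channel were far apart. Fkbp1a stood at 183 ± 14.0 CPM, whereas Fkbp1b, which encodes the form bound most tightly by the cardiac channel, gave 5, 6 and 9 counts. They stood at 111 ± 8.47 and 0.601 ± 0.120 CPM per kb of transcript (SD, n = 3), and at 47.5 and 0.575 over all annotated exons. The exact Poisson 95% interval for Fkbp1b ran from 0.155 to 1.11 CPM in sham 1 and from 0.325 to 1.35 CPM in sham 3, and covers counting error only. The labels do not say how reads shared by such related genes were counted.

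Among 11 channel partners, all averaged at least 1 CPM, as did 71.6% of all rows. Of these partners, 3 averaged at least 100 CPM, as did 9.73% of all rows. Cacna2d1 stood at 227 ± 19.5 CPM (SD, n = 3) and Rrad, a small GTPase that holds back the L-type channel, at 290 ± 58.6 CPM. Ahnak, a very large protein that binds the channel's beta subunit, stood at 523 ± 64.3 CPM. Cacna2d2 gave 452, 31 and 202 counts. Cav3 and Bin1, proteins of the transverse tubule, stood at 65.8 ± 3.04 and 8.58 ± 3.17 CPM.

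Of the pumps that expel calcium through the surface membrane, Atp2b1 stood at 74.1 ± 6.00 CPM and Atp2b4 at 38.3 ± 7.88 CPM, and Atp2b2 and Atp2b3 gave at most 22 and 9 counts in a heart. Per kb of transcript, Atp2b4 stood at 3.26 ± 0.672 CPM and Atp2b1 at 10.4 ± 0.841 CPM, both under the 170 ± 21.6 CPM of the exchanger Slc8a1. Over all annotated exons the 3 genes stood at 3.12, 4.87 and 28.7 CPM per kb, in the same order.

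All 16 listed genes of kinase and phosphatase control averaged at least 1 CPM, as did 71.6% of all rows. Of these genes, 11 averaged at least 100 CPM, as did 9.73% of all rows. Hspb6, a small heat shock protein phosphorylated by protein kinase A, stood at 1341 ± 110 CPM (SD, n = 3), and Prkar1a, a regulatory subunit of that kinase, at 633 ± 90.6 CPM. Prkaca, its main catalytic subunit in heart, stood at 328 ± 18.0 CPM. Of the catalytic subunits of protein phosphatase 1, which removes phosphate from phospholamban, Ppp1cb stood at 456 ± 34.4, Ppp1ca at 255 ± 13.4 and Ppp1cc at 85.7 ± 2.84 CPM. Per kb of transcript Ppp1ca came first, at 173 ± 9.11 CPM, with Ppp1cb at 76.5 ± 5.76 and Ppp1cc at 36.0 ± 1.19. Over all annotated exons Ppp1ca also lay above Ppp1cb, at 101 against 41.8 CPM per kb. With coding length it lay below, at 258 against 465. Ppp1r1a, which encodes inhibitor 1 of that phosphatase, gave 23, 19 and 23 counts. Pde3a, a phosphodiesterase that acts near the pump, stood at 125 ± 7.47 CPM. Of the 16 genes, 9 were highest in sham 2 and 7 in sham 1. Of all 64 partners, 25 were highest in sham 2 and 25 in sham 1. The share highest in sham 2 was 23.5% of all genes at 10 CPM or more and 37.1% of those at 100 CPM or more. That of the partners lay above the first value and near the second. With 51 of the 64 partners reaching 10 CPM and 30 reaching 100 CPM, neither background was matched to the list in level.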

How the data were processed

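Heart RNA was sequenced in 6 samples, 3 CKD and 3 sham, grouped by title. The authors deposited whole-number counts for each gene symbol, and per the submitters' processing notes the authors used Trimmomatic, HISAT2, HTSeq and DESeq with build mm9. Tool versions, annotation and strandedness: not given in the sources used here, so overlapping and antisense genes cannot be told apart. CPM was the count divided by the column total, times 1000000. A count of 0 was read as up to 3 counts, for counting error only. Replicates are known only as numbers in the titles, so the SD may be technical in part. Spearman correlations used scipy 1.17.1, and TMM used edgeR 4.0.16 in R 4.3.3. The CPM and TMM steps were tested on simulated data.

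Lengths came from GENCODE M21 (GRCm38), used for lengths and coding sequences and not for coordinates. They were found for 16599 of 17447 symbols and all 10 described genes. The reference transcript was the principal coding one, and coding length and the union of exons were alternatives. The genes, lists and ratios were chosen with earlier results of these data known, and the union of exons, the scaling to ventricular markers, other lengths for ratios beyond Pln to Atp2a2 and the count of genes highest in each heart were added after the data had been seen. All 10 genes were named, and partners by role from the lists. The planned edgeR test of CKD against sham was not run, because the CKD labels did not match.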

Additional observations from a re-analysis of the deposited data

How the results depend on the processing

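No paired analysis was possible because the row labels of the CKD columns did not match their values, so the planned fit of CKD against sham and its alternatives were not run. With the column total taken without the 10 highest rows, each level rose by 16.4% to 16.5%. The counts of the described genes then came to 4.06% of that total, which is not a share, since Atp2a2 and Pln are among the rows it leaves out. TMM moved mean levels by -0.0491% to 0.393%, but its factor for sham 2 was 0.955 against 1.02 and 1.03, which raised the median coefficient of variation of the 10 genes to 11.5% (9.57% for all genes at 10 CPM or more) and left 4 of 10 under the background median. Of the 10 genes, 9 were highest in sham 2 with TMM and 5 relative to ventricular markers, where 41.2% and 7.15% of the genes at 10 CPM or more were highest. Means over the remaining pair of hearts stay within 1 SD by construction, so leaving out a heart says nothing on stability. Without sham 2 the 10 genes took 3.34% of counts. A ratio of summed counts is a weighted mean of the ratios in the hearts. The 11 ratios moved by less than 1 SD when counts were summed, which therefore says nothing on stability either.

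Length mattered most. The Pln to Atp2a2 ratio per kb was 7.57 with coding length and 0.831 with the exon union. Others printed per kb became 34.8 and 115.8 for Atp2a2 to Slc8a1, 8.14 and 7.16 for Casq2 to Ryr2, 2.64 and 2.50 for Jph2 to Ryr2, 0.387 and 0.232 for Cacna1c to Ryr2, and 0.833 and 0.368 for Cacnb2 to Cacna1c, with coding length first. Without length, the family share was 96.0% for Jph2, 85.0% for Cacnb2 and 55.0% for Camk2d. With the exon union it was 99.85% for Atp2a2, 98.4% for Slc8a1, 82.5% for Cacna1c, 66.2% for Cacnb2 and 27.9% for Camk2d. At a minimum of 10 CPM, 51 of 64 partners were counted, as were 8864 of the 17447 rows.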

Other observations

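Calcium also passes between the cytosol and the mitochondria. All 11 listed genes of that route averaged at least 1 CPM in sham hearts, as did 71.6% of all rows. The outer membrane channels Vdac1 and Vdac2 stood at 1210 ± 81.4 and 486 ± 39.6 CPM (SD, n = 3). In the uniporter of the inner membrane, the pore gene Mcu stood at 22.3 ± 0.690 CPM and Mcub, which encodes a pore subunit that lowers its activity, at 2.47 ± 1.08 CPM. The gatekeeper Micu2 stood at 107 ± 15.5 CPM. Smdt1, which encodes the essential regulator that links the pore to its gatekeeping subunits, stood at 99.1 ± 3.61 CPM. Slc8b1, the mitochondrial sodium-calcium exchanger, gave 117, 93 and 166 counts.

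Store-operated and inositol trisphosphate receptor genes numbered 8, of which 7 averaged at least 10 CPM, as did 8864 of the 17447 rows. None averaged 100 CPM, a level that 9.73% of all rows had. Itpr1 stood at 51.3, 50.2 and 75.8 CPM in sham 1, 2 and 3, and Itpr2, the main form known in cardiomyocytes, at 23.9, 31.7 and 35.1 CPM. Both were highest in sham 3. Per kb of transcript they stood at 5.99 ± 1.46 and 3.63 ± 0.687 CPM, against 128 ± 15.98 CPM for Ryr2 (SD, n = 3). Over all annotated exons the values were 3.23, 2.04 and 74.7 CPM per kb. The store sensor Stim1 stood at 25.1 ± 2.91 CPM and the channel Orai1 at 17.9 ± 0.480 CPM (SD, n = 3).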
